A study of Mus musculus with 7 samples.

Results

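Doublecortin (Dcx) and 9 other genes that build or steer the growing microtubule and actin cytoskeleton of young neurons are described here in the medial prefrontal cortex (mPFC) of mice, a region along the inner wall of the frontal lobe. The 10 genes are Dcx, Dclk1, Dclk2, Sox11, Tubb3, Map1b, Dpysl3, Dpysl5, Stmn1 and Gap43, taken as listed microtubule and growth genes of young neurons and matched by symbol among 25467 genes of a count table from RNA sequencing. The set was selected on measured TSP1 against PBS differences in these same libraries as well as on the genes' roles. All 10 were in the table and all 10 passed the filter on low counts, as did 17211 genes in all. The 4 libraries of the TSP1 group came from mice labelled as treated with rhTSP1, recombinant human thrombospondin-1, a matrix protein secreted by astrocytes, among other cells, and known to induce excitatory synapses. The 3 libraries of the PBS group came from mice labelled as given phosphate-buffered saline. The series describes 7 mice, and 1 animal per library is assumed; for both groups the sources used here give no genotype, strain, sex, age, dose, route or time of dissection. Libraries held 15090336 to 20755167 counts and are numbered 1 to 4 with TSP1 and 1 to 3 with PBS. Values are CPM, counts scaled to a common library total, after TMM scaling, a correction for library composition.

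Microtubules in a young neuron are long, dynamic and strongly remodelled while the cell migrates and extends an axon. Doublecortin binds and bundles them, tubulins and Map1b make up and coat them, stathmin takes them apart, the collapsin response mediator proteins (Dpysl genes) link guidance signals to them, and Gap43 sits at the membrane of the growth cone. In the adult mouse forebrain Dcx is known chiefly as a mark of neuroblasts that leave the subventricular zone for the olfactory bulb and of newborn granule cells of the hippocampus, while several of the other genes stay on in mature neurons.

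Sox11, a transcription factor of young neurons, is known as an activator of Dcx in mouse and of Tubb3 in chick. The stretch before a transcript start of each of these 2 genes is therefore shown with the letters of Sox-type sites. The sequences are RefSeq's for GRCm38.p6, each 250 bases long, 5′ to 3′ on the gene's strand and ending at the base before a transcript start. Capitals mark matches on either strand to any of 4 motifs, namely ACAAAG and also ACAATG and also TCAAAG and also TCAATG. For Dcx the window is chrX:143933125-143933374 (minus strand) and for Tubb3 it is chr8:123411303-123411552 (plus strand). Other annotated Dcx transcripts start inside the Dcx window. The Tubb3 gene as positioned below begins at base 123411424, so its window runs into the gene as well.
Dcx: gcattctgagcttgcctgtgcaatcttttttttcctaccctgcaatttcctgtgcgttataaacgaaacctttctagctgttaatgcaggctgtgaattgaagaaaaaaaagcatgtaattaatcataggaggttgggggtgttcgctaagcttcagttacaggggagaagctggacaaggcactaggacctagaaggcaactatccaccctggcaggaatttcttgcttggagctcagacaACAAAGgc
Tubb3: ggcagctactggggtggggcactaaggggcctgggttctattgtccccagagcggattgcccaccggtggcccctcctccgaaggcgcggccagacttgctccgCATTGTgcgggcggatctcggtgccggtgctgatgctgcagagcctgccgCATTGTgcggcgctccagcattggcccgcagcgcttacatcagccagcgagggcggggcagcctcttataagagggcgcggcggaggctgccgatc
This Dcx window held 1 match, starting 8 bases before the transcript start, and a second Dcx window from an earlier start held 0. The Tubb3 window held 2 matches, 146 and 96 bases before the transcript start used, and the second of them lies inside the gene. Such letters are common: 39.4% of the 32851 mouse windows of this length held at least 1, so the matches are a description and not evidence of a bound site. Of the 10 genes, 7 had a window in the table, with 9 windows between them, 5 of which held a match.

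Dcx had the largest fitted difference of the 10 genes. This protein-coding gene, with exons totalling 12647 bases, lies on chromosome X between 143855842 and 143933311 (GRCm38, as are all gene positions here). Its level was 78.2, 70.9, 71.5 and 79.4 CPM in TSP1 replicates 1 to 4, against 58.7, 43.7 and 48.5 CPM in PBS replicates 1 to 3. Every TSP1 library lay above every PBS library, and PBS replicate 1 was the highest of its group. The means were 75.0 ± 4.44 CPM with TSP1 (SD, n = 4) and 50.3 ± 7.64 CPM with PBS (SD, n = 3), which is 1.49-fold (fitted log2 fold change 0.57, SE 0.09). Dcx was brought forward for this difference, so the value is a description and carries no test. In the order of fitted p-values it stood at place 3 of 17211 genes, and in the order of log2 fold changes at place 351 from the top. No gene of the table passed edgeR's quasi-likelihood test at a false discovery rate (FDR) under 0.05. That count of 0 (0% of 17211) stands beside 1661 genes (9.65%) with an unadjusted p under 0.05, 724 of them higher with TSP1 (4.21%) and 937 lower (5.44%). The count was 88 by DESeq2, 85 by the exact test of edgeR and 0 by limma-voom. In bulk tissue, fewer cells of a type and less RNA per cell cannot be told apart.

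**Figure D1:**
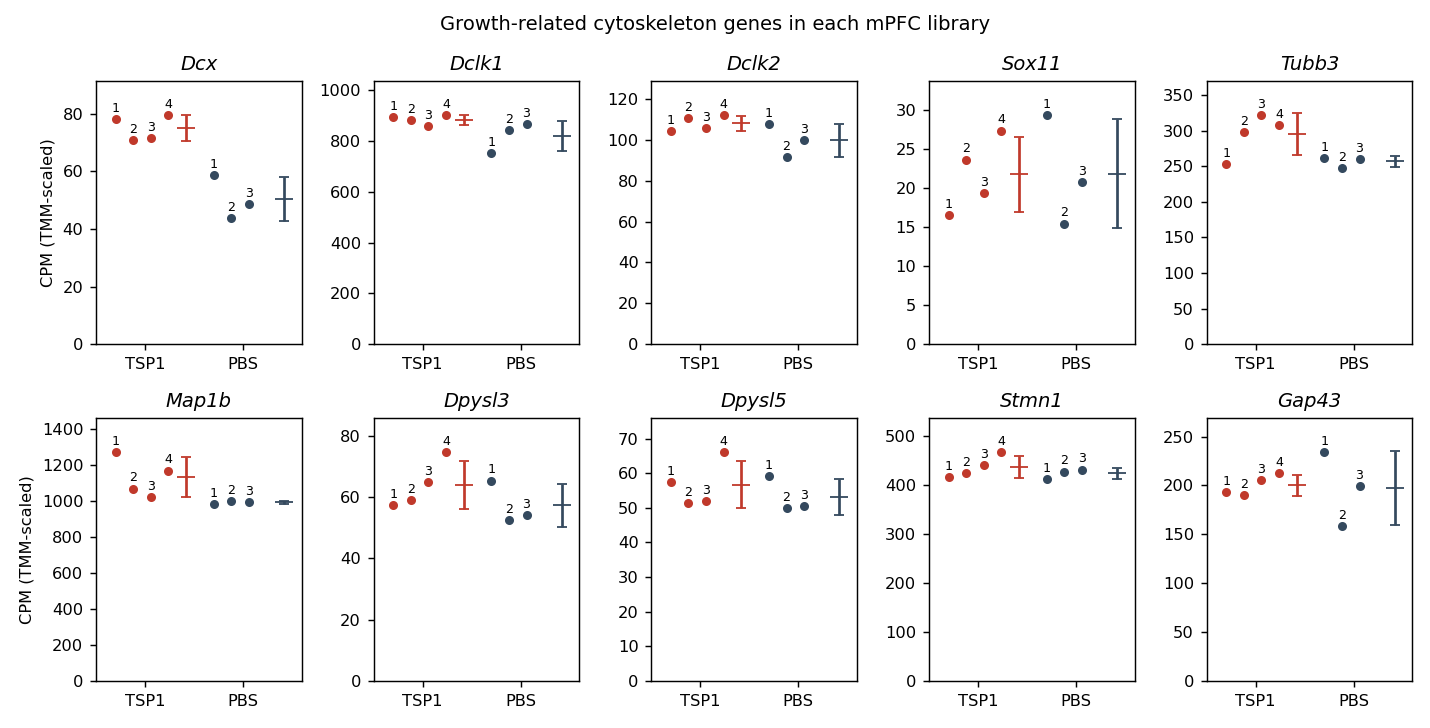
TMM-scaled CPM of the 10 genes, 1 panel a gene, with 1 point for each library (numbered by replicate) and the mean ± SD of the group beside the points, TSP1 (n = 4) left of PBS (n = 3). Dcx at 70.9 to 79.4 CPM with TSP1 lies above its PBS range of 43.7 to 58.7, whereas for Sox11 the TSP1 range of 16.6 to 27.4 CPM lies within the PBS range of 15.4 to 29.3.

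The nearest relatives of doublecortin had smaller fitted values. Dclk1, a doublecortin-like protein joined to a kinase domain and abundant in mature cortex (chromosome 3, 55242364 to 55539068), had 896, 882, 859 and 902 CPM in TSP1 replicates 1 to 4 against 754, 843 and 866 CPM in PBS replicates 1 to 3. Only TSP1 replicate 3 lay inside the PBS range, and PBS replicate 1 was the lowest of all 7 libraries. The fitted log2 fold change of Dclk1 was 0.11 (SE 0.07), and it was 0.03 after correction for exon length and GC content. Dclk2, the second doublecortin-like kinase (chromosome 3, 86786151 to 86920852), had 104, 110.4, 106 and 112 CPM in TSP1 replicates 1 to 4 against 108, 91.5 and 99.8 CPM in PBS replicates 1 to 3. Its groups overlapped at PBS replicate 1, and the log2 fold change was 0.12 (SE 0.07). Genes annotated inside Dclk1, among them Gm42608 with a mean of 6.19 CPM, were far below it in counts. The sources used here do not say whether reads were counted by strand.

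Sox11 did not follow Dcx. This single-exon gene of the SoxC family (chromosome 12, 27334264 to 27342574) had 16.6, 23.6, 19.4 and 27.4 CPM in TSP1 replicates 1 to 4 against 29.3, 15.4 and 20.8 CPM in PBS replicates 1 to 3. The highest and the lowest library were both PBS, and TSP1 replicate 1, with the second highest Dcx level, had the second lowest Sox11 level. The means were 21.7 ± 4.74 CPM with TSP1 and 21.8 ± 6.99 CPM with PBS. The log2 fold change of -0.01 (SE 0.26) has a 95% interval from -0.62 to 0.60, so a difference as large as that of Dcx was not detectable for Sox11 with this spread. The value was 0.09 without TSP1 replicate 1, 0.04 without TSP1 replicate 3 and 0.27 without PBS replicate 1, and it was -0.20 without PBS replicate 2.

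Among the structural genes, Map1b and Tubb3 had the next largest fitted values. Map1b, a microtubule-associated protein of growing axons (chromosome 13, 99421446 to 99516540), had 1270 (1269.9), 1068, 1022 and 1168 CPM in TSP1 replicates 1 to 4 against 981, 996 and 993 CPM in PBS replicates 1 to 3. The groups did not overlap, though TSP1 replicate 3 was near the PBS libraries, which lay close together. Its log2 fold change was 0.19 (SE 0.08). Tubb3, the neuronal class of beta-tubulin (chromosome 8, 123411424 to 123422015), had 253, 297, 321 and 308 CPM in TSP1 replicates 1 to 4 against 262, 248 and 260.4 CPM in PBS replicates 1 to 3. TSP1 replicate 1 lay inside the PBS range and the other 3 TSP1 libraries above it (log2 fold change 0.20, SE 0.08). Stmn1, the microtubule-destabilizing protein stathmin (chromosome 4, 134468320 to 134473843), had 416, 424, 440.2 and 467 CPM in TSP1 replicates 1 to 4 against 412, 428 and 431 CPM in PBS replicates 1 to 3. The groups overlapped (log2 fold change 0.04, SE 0.06), and the 95% interval from -0.09 to 0.18 lies below the fitted value of Dcx. How reads were assigned to genes is not stated, so Tubb3 and Stmn1 are uncertain where reads could be split with near-identical tubulin genes, processed copies or, for Tubb3, the annotated overlapping gene Gm20388.

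The guidance and growth cone genes overlapped between the groups. Dpysl3, a collapsin response mediator protein of extending axons (chromosome 18, 43320984 to 43438286), had 57.4, 59.0, 64.8 and 74.7 CPM in TSP1 replicates 1 to 4 against 65.4, 52.6 and 54.0 CPM in PBS replicates 1 to 3 (log2 fold change 0.16, SE 0.10). Dpysl5, a family member known for limiting dendrite and axon growth (chromosome 5, 30711564 to 30799375), had 57.3, 51.3, 52.0 and 66.1 CPM in TSP1 replicates 1 to 4 against 59.2, 49.97 and 50.4 CPM in PBS replicates 1 to 3 (log2 fold change 0.09, SE 0.09). In both genes TSP1 replicate 4 was the highest of the 7 libraries and PBS replicate 1 the highest of its group. Gap43, a membrane protein of growth cones and presynaptic terminals (chromosome 16, 42248442 to 42340651), had 193, 190.0, 205 and 213 CPM in TSP1 replicates 1 to 4 against 234, 159 and 199.6 CPM in PBS replicates 1 to 3. All 4 TSP1 libraries of Gap43 lay between the lowest and the highest PBS library. Its log2 fold change was 0.02 (SE 0.11; 95% interval -0.22 to 0.26), and it was -0.11 without PBS replicate 2 and 0.16 without PBS replicate 1.

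**Figure D2:**
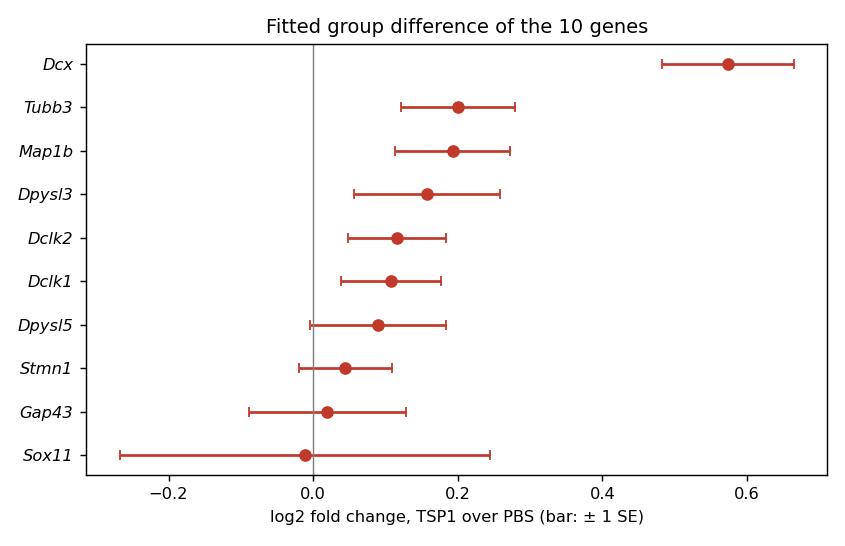
Fitted log2 fold change, TSP1 over PBS, of the 10 genes from edgeR's quasi-likelihood fit, with bars of 1 SE. Dcx stands at 0.57, the next genes Tubb3 and Map1b at 0.20 and 0.19, and Sox11 at -0.01 with the widest bar.

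Counted together, 9 of the 10 genes had fitted values above 0, as did 51.1% of all genes tested. The median log2 fold change of the 9 genes other than Dcx was 0.11, beside 0.00 over all genes, with a range of -0.01 to 0.20. Dcx and Map1b were the 2 genes whose groups did not overlap; over all genes 4.83% did so in this direction, 5.26% in the other and 10.1% in either. The genes with an unadjusted p under 0.05 numbered 3, namely Dcx, Tubb3 and Map1b, all higher with TSP1, and 0 of the 10 passed the FDR threshold. These counts describe genes proposed with results of the same libraries in view, and nothing is read from them. The 3 became 4 genes without PBS replicate 1, and 1 gene with the replicate number as a block or without PBS replicate 2. They became 2 genes with the length and GC correction or on leaving out PBS replicate 3 or either of TSP1 replicates 1 and 3. Number 4 occurs with TSP1 alone, so the block takes TSP1 replicate 4 out of the group comparison.

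The level of Dcx was also set against that of the others library by library. On the log2 CPM scale, relative to the mean of the 7 libraries, Dcx stood 0.34, 0.15, 0.17 and 0.16 above the mean of the other 9 genes in TSP1 replicates 1 to 4, against -0.16, -0.35 and -0.31 in PBS replicates 1 to 3. The ratio of Dcx to each of the others did not overlap between groups for 8 of the 9 genes. The exception was Tubb3, whose ratio in TSP1 replicate 3 (-2.17) was just below that in PBS replicate 1 (-2.16). These ratios share the Dcx values that brought the gene forward and are given as a description. Dcx itself did not overlap between the groups, so its ratio to a gene of little difference tends not to overlap either. The share of such ratios over all genes was not computed.

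The spread between libraries of 1 group varied widely among the 10 genes, and it was not compared with that of other genes. With PBS the coefficient of variation was 32.0% for Sox11, 19.2% for Gap43, 15.2% for Dcx and 12.2% for Dpysl3, against 0.785% for Map1b and 2.47% for Stmn1. With TSP1 it was 21.8% for Sox11, 12.2% for Dpysl3 and 12.0% for Dpysl5, and 5.92% for Dcx. PBS replicate 1 had the highest level of its group for 7 of the 10 genes, namely Dcx, Dclk2, Sox11, Tubb3, Dpysl3, Dpysl5 and Gap43, and the lowest for Dclk1, Map1b and Stmn1. Without PBS replicate 1 the log2 fold change of Dcx was 0.70.

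Per kilobase of exon, which allows levels to be compared between genes, Dcx was among the lowest of the 10. CPM per kilobase ranged over the 7 libraries from 214 to 243 for Stmn1, 133 to 172 for Tubb3, 104 to 154 for Gap43, 61.9 to 80.1 for Map1b and 49.3 to 59.0 for Dclk1. A gap followed, with 8.67 to 10.6 for Dclk2, 7.96 to 11.3 for Dpysl3 and 6.77 to 8.96 for Dpysl5, then 3.46 to 6.28 for Dcx and 1.86 to 3.52 for Sox11. Ranges of neighbours overlapped between Tubb3 and Gap43, among Dclk2, Dpysl3 and Dpysl5, and, by the margin between PBS replicate 2 for Dcx and PBS replicate 1 for Sox11, between Dcx and Sox11. Of the 10, Dcx had the lowest GC content in its longest transcript (40.6%, against 46.3% to 57.9% for the others), and its log2 fold change with the length and GC correction was 0.49.

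The wider set of young neuron genes was read from lists chosen with earlier results of these libraries known. Of 18 membrane and growth cone genes, 14 had fitted values above 0, with a median of 0.13 on the log2 scale, and 5 had an unadjusted p under 0.05, all higher with TSP1 (27.8% of the list, beside 4.21% of all genes in this direction). None passed the FDR threshold. Robo2, a Slit receptor of axon guidance, had 97.4, 112, 88.9 and 100.3 CPM in TSP1 replicates 1 to 4 against 72.8, 85.0 and 86.2 CPM in PBS replicates 1 to 3 (log2 fold change 0.29, SE 0.08, edgeR adjusted p = 0.288). Dcc, the netrin receptor, had 13.3, 11.7, 12.5 and 15.7 CPM in TSP1 replicates 1 to 4 against 9.89, 10.5 and 9.72 CPM in PBS replicates 1 to 3 (log2 fold change 0.40, SE 0.12, edgeR adjusted p = 0.308). L1cam, a cell adhesion molecule of axons, had 239, 207, 203 and 201 CPM in TSP1 replicates 1 to 4 against 178, 189.8 and 172 CPM in PBS replicates 1 to 3 (log2 fold change 0.24, SE 0.07, edgeR adjusted p = 0.313). In each of these 3 genes all TSP1 libraries lay above all PBS libraries, as for 4.83% of all genes. They were named for the smallest p of the list, which favours groups that do not overlap. Without TSP1 replicate 4 the list's median was 0.05 and 3 genes had an unadjusted p under 0.05. With the replicate block, which also sets TSP1 replicate 4 aside, these were 0.04 and 3. The count was also 3 on leaving out the third replicate of either group.

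Nuclear regulators and close structural relatives were read in the same way. Of 14 tested transcription factor and RNA-binding protein genes of young neurons, 10 had fitted values above 0 (median 0.07) and 0 had an unadjusted p under 0.05. The smallest p belonged to Neurod6, a neurogenic factor of cortical projection neurons, at a log2 fold change of -0.16 (SE 0.08, edgeR adjusted p = 0.547), then to Eomes at 2.31 (SE 1.21, edgeR adjusted p = 0.624) and the RNA-binding protein gene Celf1 at 0.09 (SE 0.06, edgeR adjusted p = 0.690). Of 17 relatives of the tubulins, stathmin and collapsin response mediator proteins, 12 had fitted values above 0 (median 0.04) and again 0 had an unadjusted p under 0.05, although 5 did without TSP1 replicate 1 and 2 with the length and GC correction. Tubb2a, Crmp1 and Tubb5 came first there, with log2 fold changes of 0.16 (SE 0.08), 0.12 (SE 0.06) and 0.10 (SE 0.07) and edgeR adjusted p = 0.544, 0.559 and 0.693.

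Partners of doublecortin in migration were split evenly. Of 16 such genes, which include the dynein regulators Pafah1b1 and Ndel1 and the kinase gene Cdk5, 8 had fitted values above 0 and 8 below (median -0.01). Dync1h1, the dynein heavy chain, was higher with TSP1 (0.20, SE 0.08, edgeR adjusted p = 0.465) and Ppp1r9b, the spine protein spinophilin, was lower (-0.25, SE 0.09, edgeR adjusted p = 0.428), both at an unadjusted p under 0.05 and neither past the adjustment. Nde1, another dynein regulator, followed at -0.32 (SE 0.16, edgeR adjusted p = 0.564). Of 12 mature neuron genes, 8 had fitted values above 0 (median 0.03) and 0 had an unadjusted p under 0.05, with Syt1, Camk2a and Tubb4a first at 0.16, -0.21 and 0.10 (edgeR adjusted p = 0.544, 0.645 and 0.779). Of 12 progenitor and cell division genes 8 had fitted values above 0 (median 0.09), and the 2 at an unadjusted p under 0.05 were lower with TSP1: Sox2, a stem cell and astrocyte factor (-0.23, SE 0.08, edgeR adjusted p = 0.401), and the Notch target Hes5 (-0.33, SE 0.15, edgeR adjusted p = 0.492). Prom1 followed at -0.23 (SE 0.13, edgeR adjusted p = 0.605).

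**Figure D3:**
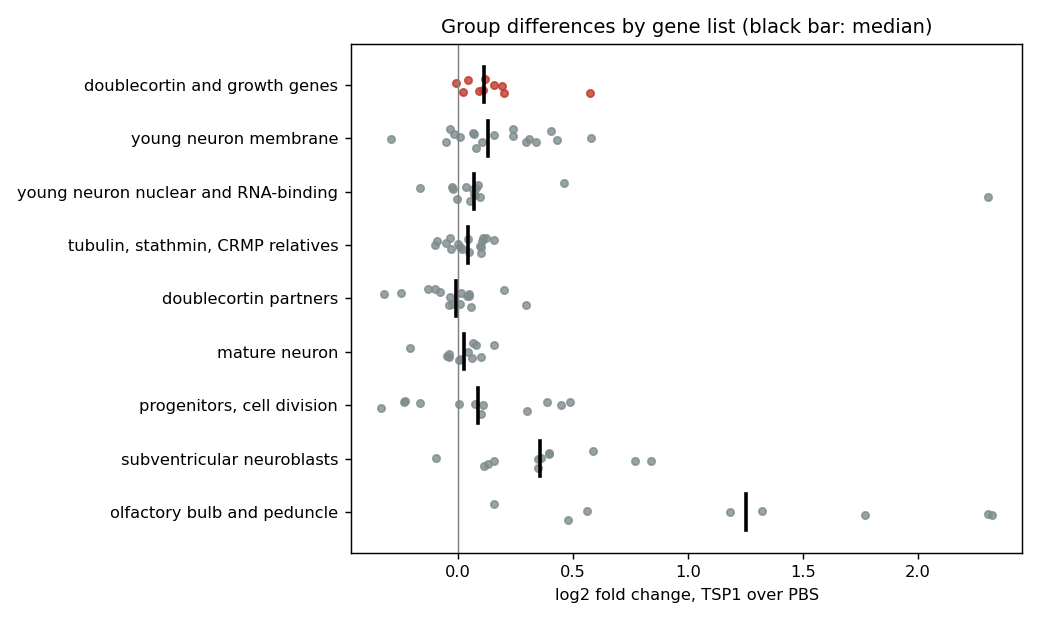
Fitted log2 fold change, TSP1 over PBS, of each tested gene (points, spread vertically at random within a row) in 9 lists, with the list's median as a black bar. The medians run from -0.01 for the doublecortin partners to 0.35 for the subventricular neuroblast list and 1.25 for the olfactory bulb and peduncle list.

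As list means of log2 CPM, neuroblast stream and olfactory bulb markers varied between libraries of a group more than the 10 genes did. The pooled SD within groups was 0.51 and 0.79 against 0.10 log2 units, a spread of list means and not of single genes. Fitted values were above 0 for 11 of 12 subventricular and olfactory neuroblast markers (median 0.35 on the log2 scale), of which 0 had an unadjusted p under 0.05. Their summed level was 358, 529.5, 505 and 596 CPM in TSP1 replicates 1 to 4 against 499, 399 and 421 CPM in PBS replicates 1 to 3. The sum includes Gad1, which is also in the list of cortical interneuron genes, so it is not one of neuroblasts alone. TSP1 replicate 1 had the lowest sum of the 7 libraries and TSP1 replicate 4 the highest, and PBS replicate 1 stood apart from the other PBS libraries. The genes of smallest p were Dlx6, Tshz1 and Dlx5, with log2 fold changes of 0.40, 0.39 and 0.36 (edgeR adjusted p = 0.542, 0.545 and 0.687). The median was 0.53 without TSP1 replicate 1, where 6 of the 12 had an unadjusted p under 0.05, and 0.17 without TSP1 replicate 4.

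Of 8 tested markers of olfactory bulb and peduncle neurons, all 8 had fitted values above 0, with a median of 1.25 on the log2 scale, and 5 had an unadjusted p under 0.05, all higher with TSP1. Over all genes 51.1% were above 0 and 4.21% had such a p in this direction. Their summed level was 152, 231, 202 and 207 CPM in TSP1 replicates 1 to 4 against 146, 127 and 139.9 CPM in PBS replicates 1 to 3. The groups did not overlap in this sum, but Reln held a large part of it and did not overlap by itself. The list's mean of log2 CPM centred per gene, where each gene weighs alike, did overlap. It was -0.91 in TSP1 replicate 1 against -0.06, -1.10 and -0.69 in PBS replicates 1 to 3. The list includes Reln, the secreted protein reelin, at 83.2, 91.7, 81.0 and 86.9 CPM in TSP1 replicates 1 to 4 against 54.0, 63.2 and 67.4 CPM in PBS replicates 1 to 3 (log2 fold change 0.48, SE 0.08, edgeR adjusted p = 0.112), which cortical interneurons also express. Slc17a6, a vesicular glutamate transporter, had 14.7, 13.1, 12.9 and 15.1 CPM in TSP1 replicates 1 to 4 against 9.56, 8.46 and 10.3 CPM in PBS replicates 1 to 3 (log2 fold change 0.56, SE 0.11, edgeR adjusted p = 0.123). The mitral and tufted cell factor Tbx21 had 0, 1.13, 1.48 and 1.09 CPM in TSP1 replicates 1 to 4 against 0.239, 0.0591 and 0.245 CPM in PBS replicates 1 to 3 (log2 fold change 2.32, SE 0.87, edgeR adjusted p = 0.444). Eomes, another mitral cell factor, was at 1 count in TSP1 replicate 1 (0.0660 CPM) and at 4.36, 3.46 and 3.32 CPM in TSP1 replicates 2 to 4, against 1.34, 0.0591 and 0.183 CPM in PBS replicates 1 to 3. The 5 genes became 2 on leaving out PBS replicate 2 or either of TSP1 replicates 2 and 4, or with the replicate block, 3 on leaving out the third replicate of either group or with no low-count filter, and 8 without TSP1 replicate 1. With at least 5 CPM in 3 libraries the median was 0.57 over 5 genes. Leaving out TSP1 replicate 2, 3 or 4 left 7 genes of the list past the low-count filter, against 8 without any single PBS library. A gene that passes only through its TSP1 libraries has a fitted value above 0 by that choice. The count above 0 and the median are therefore descriptions.

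Dcx was high in the library where the neuroblast sum was lowest. TSP1 replicate 1 had that sum (358 CPM), 0 counts of Tbx21 and 1 count of Eomes, and its Dcx level of 78.2 CPM was second only to TSP1 replicate 4 with the highest neuroblast sum (596 CPM) and 79.4 CPM of Dcx. The olfactory sum was lowest in PBS replicate 2 (127 CPM), where Dcx was lowest too. PBS replicates 2 and 3 had neuroblast sums of 399 and 421 CPM and Dcx at 43.7 and 48.5 CPM. Sp8, a neuroblast factor named after its values were seen, had 0.989, 8.99, 7.85 and 9.75 CPM in TSP1 replicates 1 to 4 against 8.03, 2.13 and 1.77 CPM in PBS replicates 1 to 3. Without TSP1 replicate 1 the log2 fold change of Dcx was 0.55. Whether the dissections differed in how much olfactory or neuroblast tissue they held was not tested. Within PBS, Dcx and Sox11 were both highest in replicate 1, the PBS library with the highest neuroblast sum.

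**Figure D4:**
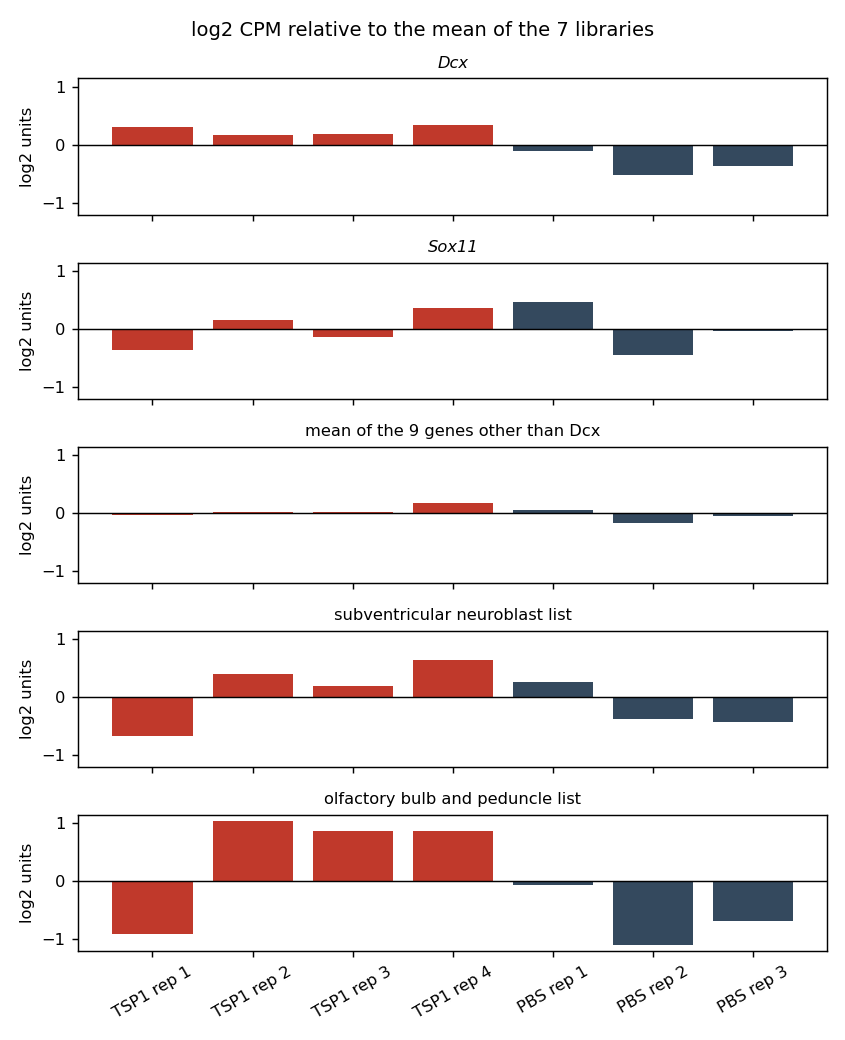
Log2 CPM relative to the mean of the 7 libraries, for Dcx, Sox11, the mean of the 9 genes other than Dcx, and the means of the subventricular neuroblast and the olfactory bulb and peduncle lists, by library (TSP1 red, PBS dark blue). Dcx is above 0 in all 4 TSP1 libraries (0.17 to 0.34), including TSP1 replicate 1, where the neuroblast list is at -0.67 and the olfactory list at -0.91.

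The labelled tissue was checked against cortical markers. Of 11 tested markers of cortical projection neurons 7 had fitted values above 0 (median 0.03), with summed levels of 2081 to 2456 CPM with TSP1 and 2129 to 2473 CPM with PBS. Tbr1 and Tle4 had the smallest p, with log2 fold changes of -0.13 and 0.16 (edgeR adjusted p = 0.716 and 0.783). All 11 tested striatal markers had fitted values above 0 (median 0.55), and their sum was 646 CPM in TSP1 replicate 4, against 259 to 275 CPM in the other TSP1 libraries and 243 to 268 CPM with PBS. Without TSP1 replicate 4 the striatal median was -0.02 and the log2 fold change of Dcx 0.55. Rarb, Pde10a and Syndig1l led the striatal list at 0.51, 0.61 and 1.37 (edgeR adjusted p = 0.448, 0.544 and 0.669).

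Markers of non-neuronal cells mostly had fitted values below 0, as did cytosolic ribosomal protein genes, which are given beside them and are not markers of a cell type. All 13 microglia, 11 of 12 astrocyte, all 11 endothelial, 9 of 12 oligodendrocyte precursor, 10 of 12 mature oligodendrocyte and all 22 cytosolic ribosomal protein genes had fitted values below 0, with medians of -0.26, -0.21, -0.20, -0.17, -0.12 and -0.20. Summed levels with TSP1 and with PBS were 516 to 653 against 671 to 785 CPM for microglia, 5511 to 6798 against 6391 to 7426 CPM for astrocytes, 275 to 357 against 359.6 to 447 CPM for endothelial cells, 741 to 799 against 767 to 841 CPM for precursors, 3211 to 8817 against 4834 to 6111 CPM for mature oligodendrocytes and 3202 to 4126 against 4123 to 4646 CPM for ribosomal proteins. In the same order 9, 5, 5, 3, 1 and 12 genes had an unadjusted p under 0.05, all lower with TSP1 (5.44% of all genes in this direction), and 0 passed the FDR threshold. The genes of smallest p were C1qa, Ctss and Tyrobp for microglia (-0.52, -0.56 and -0.54), S100b, Ntsr2 and Aldoc for astrocytes (-0.42, -0.34 and -0.31), Vwf, Cldn5 and Ly6c1 for endothelial cells (-0.94, -0.52 and -0.58) and Gpr17, Neu4 and Pdgfra for precursors (-0.29, -0.32 and -0.17). Those of mature oligodendrocytes were Trf, Cldn11 and Mal (-0.70, -0.33 and -0.26), and those of the ribosomal list Rps21, Rps29 and Rps27 (-0.39, -0.49 and -0.33). The median of mature oligodendrocytes was 0.05 without TSP1 replicate 1, 0.02 without TSP1 replicate 2 and -0.58 without TSP1 replicate 4. Their 1 gene became 12 without TSP1 replicate 4, 11 with the replicate block and 0 on leaving out any 1 of TSP1 replicates 1 to 3 or PBS replicates 1 and 2. The 3 precursor genes became 6 without TSP1 replicate 4 or with the block, and 1 without PBS replicate 1. The block sets TSP1 replicate 4 aside too, so it is not a separate check from leaving that library out. The 12 ribosomal genes became 6 without PBS replicate 1 and 7 without PBS replicate 3. The part of these cell types in the Dcx value was not tested.

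The genes whose pattern over the 7 libraries was closest to that of Dcx were not the other 9. Likeness was the root mean square difference of log2 CPM, each gene centred on its own mean, among 13962 named protein-coding genes. The closest were Mutyh, a DNA repair glycosylase (0.0941 log2 units), Nmnat3, an enzyme of NAD synthesis (0.0941), Slc17a6 (0.107), Zfp976, a zinc finger gene (0.117), and Fam198b (0.117). Their log2 fold changes were 0.57 (SE 0.22), 0.51 (SE 0.22), 0.56 (SE 0.11), 0.65 (SE 0.19) and 0.53 (SE 0.20). Except for Slc17a6 they were low genes, with 1.36 to 4.69 CPM in every library, where counting error adds to each difference. Of the 9 genes the nearest was Map1b, at 0.236 log2 units and place 519, then Dpysl3 at 0.238 (place 546) and Dclk2 at 0.245 (place 683). Sox11 was the farthest, at 0.376 and place 9181. Because Dcx was brought forward for its group difference, genes with a difference of like size are near it by construction of the measure.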

How the data were processed

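RNA was sequenced from the mPFC of 7 mice, with 1.3 µg of total RNA per library and a SMARTer mRNA kit per the labels' protocols. The authors deposited raw counts, 1 column per library; the values are whole numbers with unequal totals. The submitters' processing notes name GRCm38 and mm10; no aligner, counting tool, annotation or strand setting is given in the sources used here. Every gene had at least 5 counts over the 7 libraries and 0 columns belonged to other samples. Of 25467 gene identifiers, 25375 had an entry in GENCODE M21 (GRCm38); exon length is the union of exons and GC content that of the longest transcript.

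The fit was edgeR 4.0.16 in R 4.3.3 with filterByExpr, TMM and a robust quasi-likelihood test of group, two-sided, fitted to the 7 libraries and adjusted by Benjamini-Hochberg over 17211 genes. The SE divides the log2 fold change by the root of F. Likeness used a prior count of 2. DESeq2 1.42.0 left the adjusted p of 10876 genes undefined, and these were not counted. Scripts were tested on simulated counts. Replicate libraries differed beyond sampling noise (chi-square 4.26 to 14.7 per degree of freedom). The biological coefficient of variation, the root of edgeR's common dispersion between replicate libraries, was 9.8%. P-values set the group difference against the variation between libraries of a group, each assumed to be 1 animal.

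The members and gene lists were chosen with earlier results of these data known. Named were the 10 genes, the 3 genes of smallest p in each list, the 5 genes nearest to Dcx among protein-coding genes without predicted or clone names, and a few others as stated; 1 gene that this rule names is not reported here. Alternatives were RLE size factors, DESeq2, limma-voom 3.58.1, edgeR's exact test, no filter, at least 5 CPM in 3 libraries, the replicate block, offsets for exon length and GC content (splines with 4 degrees of freedom) and leaving out each library.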

Additional observations from a re-analysis of the deposited data

Results flagged for a closer look

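Among 86 values looked at in the 4 TSP1 libraries (the named genes and the list sums), 7 had 1 library far from the other 3; chance alone gives about 1 in 20. None of the 10 genes was among them. TSP1 replicate 1 stood high for L1cam, at 239 CPM against 201 to 207 CPM in the other TSP1 libraries. TSP1 replicate 4 stood high for Tubb4a (782 CPM against 593 to 615), Dlx6 (5.94 CPM against 3.87 to 4.22), Trf (5.39 CPM against 2.25 to 2.48), Pde10a (175 CPM against 91.4 to 104), Syndig1l (20.4 CPM against 3.82 to 4.77) and the summed striatal markers (646 CPM against 259 to 275).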

How the results depend on the processing

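The number of genes past FDR 0.05 was 0 in the quasi-likelihood test, 88 with DESeq2, 85 with edgeR's exact test, 19 with no low-count filter, and 0 to 9 when single libraries were left out (9 without PBS replicate 3); the cause was not tested. The log2 fold change of Dcx was 0.48 to 0.58 over 9 other settings and 0.49 to 0.70 over the 7 fits that left out a library. The number of the 10 genes above 0 was 8 to 10 over all 16 alternatives. The median of the 9 other genes was 0.05 to 0.11 over the other settings and 0.06 to 0.18 with single libraries left out, 0.18 without PBS replicate 1 and 0.06 without PBS replicate 2. Of 160 recomputed values of single genes, 2 moved by over 1 SD between replicates, both of Dclk1 with the length and GC correction (0.03). Nothing in the labels says that the shared replicate numbers pair mice. TSP1 replicate 4 has no PBS library of its number, so with the block the group difference rests on replicates 1 to 3. Deviations of same-numbered libraries from their group means correlated at -0.26, -0.03 and 0.01. With so few libraries this cannot exclude a pairing. With the replicate block, Dcx was at 0.56, Sox11 at -0.11, and 0 genes passed; libraries did not all correlate best with their own number. Together with the length and GC correction the block gave Dcx 0.48. Depth limits genes with few counts per library, such as Tbx21 with 0 to 27 counts.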

Other observations

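The interneuron list was not compared with the growth genes, though its member Gad1 is also in the neuroblast list. Of 10 cortical interneuron genes 6 had fitted values below 0 (median log2 fold change -0.12), and 4 had an unadjusted p under 0.05, all lower (5.44% of all genes in this direction), with 0 past the FDR threshold. The summed levels overlapped, at 863 to 1023 CPM with TSP1 and 979 to 1099 CPM with PBS. Vip, a peptide of 1 interneuron class, had 18.9, 26.7, 22.8 and 17.8 CPM in TSP1 replicates 1 to 4 against 28.0, 31.9 and 32.8 CPM in PBS replicates 1 to 3 (-0.52, SE 0.13, edgeR adjusted p = 0.235). Npy and Sst, peptides of overlapping classes, stood at -0.25 (SE 0.07, edgeR adjusted p = 0.271) and -0.21 (SE 0.07, edgeR adjusted p = 0.329). In Vip, Npy and Sst every TSP1 library lay below every PBS library, as for 5.26% of all genes. These 3 were named for the smallest p of the list, which favours groups that do not overlap. Without PBS replicate 3 the list's median was -0.00090 and 2 genes had an unadjusted p under 0.05.

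Of the 5 tested markers of Cajal-Retzius cells, the reelin-secreting neurons of the cortical surface, all had fitted values above 0 (median 0.56). Over all genes tested 51.1% did so, and with the replicate block 4 of the 5 did. The list's mean of log2 CPM centred per gene was lower in TSP1 replicate 1 (-0.22) than in PBS replicate 1 (-0.09). Other genes of the list were in the count table but did not pass the low-count filter. Beside Reln, which the olfactory list also holds, Ndnf, a gene of surface-layer interneurons as well, had 25.9, 32.9, 35.7 and 36.8 CPM in TSP1 replicates 1 to 4 against 22.4, 9.87 and 19.0 CPM in PBS replicates 1 to 3 (0.93, SE 0.28, edgeR adjusted p = 0.401). Ebf3 was low, at 0.490 to 1.24 CPM with TSP1 and 0.532 to 0.621 CPM with PBS (0.58, SE 0.38, edgeR adjusted p = 0.676).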
